A study of Mus musculus with 8 samples.

Results

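The odorant-binding protein (Obp), lipocalin (Lcn), BPI-fold (Bpifa and Bpifb) and major urinary protein (Mup) genes of the mouse were examined in olfactory epithelium. The members were the genes whose symbol begins with Obp, Lcn or Mup followed by a number, or with Bpifa or Bpifb, with Lcn2 left out. This gave 47 of the 25913 genes of the count table: 2 Obp, 11 Lcn, 5 Bpifa, 8 Bpifb and 21 Mup genes. The study compared mice in which the insulin-like growth factor 1 receptor, Igf1r, was removed from olfactory sensory neurons, as the names of the groups have it by way of Omp (a gene active in mature olfactory sensory neurons), with control mice. All mice were C57BL/6J and 40 weeks old. The 4 libraries titled OMP_IGF1R (replicates 11, 12, 17 and 18) were set against the 4 titled IGF1R_flfl (replicates 1, 2, 3 and 13). The genotype field of the labels gives each title group the opposite name: libraries titled OMP_IGF1R carry the control genotype there, and libraries titled IGF1R_flfl carry the knockout genotype. The groups are therefore called by their titles throughout, and each fold change is of OMP_IGF1R over IGF1R_flfl. Whether each library is a different animal is not stated in the labels, and p-values therefore cover the spread among these 8 samples, which may be technical.

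Lipocalins are small secreted proteins that fold into a barrel and carry hydrophobic molecules. The odorant-binding proteins and the major urinary proteins belong to them: odorant-binding proteins are secreted by nasal glands into the mucus over the olfactory and respiratory epithelium, and major urinary proteins are known as pheromone carriers made mostly by the liver. BPI-fold proteins are secreted lipid-binding proteins related to the bactericidal/permeability-increasing protein of neutrophils, and several are abundant in nasal and airway secretions. They are known mainly as products of glands and of surface epithelium, both of which a dissected olfactory epithelium holds beside its neurons.

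Total counts were 18802471 to 25585192 in the OMP_IGF1R libraries and 23176815 to 27793375 in the IGF1R_flfl libraries. Igf1r had 34.5 to 49.6 CPM, the counts scaled to each library's total in the OMP_IGF1R libraries and 55.4 to 72.8 CPM in the IGF1R_flfl libraries, so the lower level lies in the libraries whose title names the receptor after Omp. A pair of libraries stood apart in markers of other tissues. The skeletal muscle markers added up to 499.7 CPM in OMP_IGF1R 17, against 4.53 to 8.11 CPM in the other 7 libraries, and the vomeronasal genes to 122 CPM there, against 29.1 to 35.7 CPM in the other 7. The markers of olfactory bulb and oligodendrocytes added up to 1917 CPM in IGF1R_flfl 2, against 113 to 169 CPM in the other 7. The mature olfactory neuron markers moved with the group: they summed to 5801 to 7186 CPM in OMP_IGF1R and 11028 to 15517 CPM in IGF1R_flfl, and 8 of 8 were called lower. Omp, counted among them, alone had 1706 to 2184 CPM in OMP_IGF1R and 4467 to 6729 CPM in IGF1R_flfl. Its log2 fold change was -1.45 (SE 0.132, adjusted p = 0.00179, edgeR), against a median of -0.79 over the 8 markers. Neutrophil and macrophage markers summed to 80.4 to 99.7 CPM in OMP_IGF1R and 68.7 to 114 CPM in IGF1R_flfl. In bulk tissue, fewer cells of a type and less RNA per cell cannot be told apart.

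The members lie in 4 places of the GRCm38 genome. Obp1a spans 78085505 to 78091374 on chromosome X on the minus strand, and Obp1b spans 78186777 to 78192292 on the plus strand. The 11 Lcn genes lie on chromosome 2, 10 of them between 25490845 and 25825537 and Lcn4 at 26667674 to 26671282. The 13 Bpifa and Bpifb genes lie on the same chromosome between 153875045 and 154320646, all on the plus strand, and the 21 Mup genes lie on chromosome 4 between 59956804 and 62150863. All 47 are protein coding in GENCODE M21, where Lcn13 and Lcn14 carry the names Obp2a and Obp2b, and none overlaps another gene of the count table.

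The sequences just before the start of 5 members are shown because these genes span the patterns described below. Obp1a and Obp1b varied widely between libraries and in the same library order, Bpifb9a and Bpifb9b varied widely in another order, and Bpifa1 was the most abundant member and varied little. The stretches come from RefSeq on GRCm38.p6 and end at the base before the first annotated base of the gene, at chrX:78091375-78091624 (minus strand), chrX:78186558-78186776 (plus strand), chr2:154257629-154257853 (plus strand), chr2:154306994-154307226 (plus strand) and chr2:154142630-154142879 (plus strand). Capitals mark TATAAA, the letters of the TATA box.
Obp1a: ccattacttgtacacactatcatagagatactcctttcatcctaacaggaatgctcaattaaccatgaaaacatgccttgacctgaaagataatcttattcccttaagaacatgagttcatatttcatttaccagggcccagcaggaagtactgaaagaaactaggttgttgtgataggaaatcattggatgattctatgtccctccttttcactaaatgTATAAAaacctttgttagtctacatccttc
Obp1b: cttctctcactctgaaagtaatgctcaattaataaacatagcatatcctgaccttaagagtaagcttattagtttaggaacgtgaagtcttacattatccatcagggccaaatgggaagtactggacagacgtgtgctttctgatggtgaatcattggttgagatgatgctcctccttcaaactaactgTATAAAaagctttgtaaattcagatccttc
Bpifb9a: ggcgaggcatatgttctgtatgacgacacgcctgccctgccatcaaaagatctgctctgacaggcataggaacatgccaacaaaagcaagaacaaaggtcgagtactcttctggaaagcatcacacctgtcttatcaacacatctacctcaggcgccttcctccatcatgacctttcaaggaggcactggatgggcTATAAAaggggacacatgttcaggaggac
Bpifb9b: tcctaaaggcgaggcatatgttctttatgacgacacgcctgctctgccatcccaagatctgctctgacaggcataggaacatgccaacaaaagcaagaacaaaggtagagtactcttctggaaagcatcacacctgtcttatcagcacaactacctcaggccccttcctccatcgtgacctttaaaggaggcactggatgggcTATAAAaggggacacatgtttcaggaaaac
Bpifa1: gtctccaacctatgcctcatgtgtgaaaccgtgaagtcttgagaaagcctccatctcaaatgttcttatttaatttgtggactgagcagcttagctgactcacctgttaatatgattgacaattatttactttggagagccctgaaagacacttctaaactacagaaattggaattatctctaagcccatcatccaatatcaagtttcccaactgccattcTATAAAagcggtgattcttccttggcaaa
In each of the 5 the TATAAA letters begin 29 or 30 bases before the start of the gene in the count table, and the same holds for Lcn13 and Lcn14. Of the 18 members that could be tested for expression, 17 had a RefSeq window from 250 bases before to 50 bases after the start. TATAAA, searched on both strands like the motifs that follow, occurred in 9 of the 17, against 13.6% of all 32817 windows of that length. The SOX core AACAAT occurred in 2 of the 17, in Lcn4 and Mup4, against 10.7% of all windows. The forkhead core TGTTTAC occurred in 0 of the 17, against 3.65% of all windows. A match is a description of the letters and no evidence of a bound factor. Aligned over the 300-base windows, Bpifb9a and Bpifb9b were 90.6% identical, Lcn13 and Lcn14 79.0%, and Obp1a and Obp1b 55.9%, while the other 33 pairs among Obp1a, Obp1b, Bpifb9a, Bpifb9b, Bpifa1, Lcn13, Lcn14, Lcn3 and Lcn4 were 43.1 to 51.9% identical.

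Of the 47 members, 18 passed the filter on low counts: both Obp genes, 5 Lcn, 2 Bpifa, 7 Bpifb and 2 Mup genes. A further 20 had 0 reads in all 8 libraries. They were 16 Mup genes and Lcn5, Lcn6, Lcn9 and Lcn10, which are known from the mouse epididymis. A count of 0 allows up to 0.109 CPM in IGF1R_flfl 1, the deepest library, and up to 0.153 CPM in OMP_IGF1R 11, the shallowest, where 3 counts are taken as the limit and counting error alone is covered. Of these 16 Mup genes, 14 share over 50% of their 100-base transcript windows with another gene, with a range of 4.50 to 100% over the 16. A counting step that drops reads with several matches could lower their counts, and its part in the counts of 0 was not tested. Mup4 and Mup5, the Mup genes that were tested, share 0% and 1.33% of their windows.

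The remaining 9 members had some reads but were too low to test, and 6 of them had at most 7 reads in any library (Lcn8, Lcn12, Bpifb2, Bpifa3, Mup2 and Mup3). The other 3 had at least 41 reads in 1 library and fewer in the rest. Bpifa5 had 130 reads in OMP_IGF1R 17 and 0 to 2 in the other 7 libraries. Mup6 had 0, 1, 15 and 3 reads in OMP_IGF1R 11, 12, 17 and 18, against 0, 16, 0 and 41 reads in IGF1R_flfl 1, 2, 3 and 13. Bpifa6 had 0.663, 0.301, 0.354 and 1.42 CPM in OMP_IGF1R 11, 12, 17 and 18, against 0.289, 4.49, 0.238 and 0.408 CPM in IGF1R_flfl 1, 2, 3 and 13. The 4.49 CPM of IGF1R_flfl 2 rest on 118 reads.

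The odorant-binding genes differed far more within each group than between the groups. Obp1a had 38.4, 775, 5306 and 122 CPM in OMP_IGF1R 11, 12, 17 and 18, against 41.1, 2603, 157 and 11985 CPM in IGF1R_flfl 1, 2, 3 and 13. The highest library exceeded the lowest 138-fold among the OMP_IGF1R libraries and 292-fold among the IGF1R_flfl libraries, and the groups overlapped over most of their range. Obp1a averaged 1560 ± 2519 CPM in OMP_IGF1R and 3697 ± 5650 CPM in IGF1R_flfl (SD, n = 4 each), with a log2 fold change of -1.24 (SE 1.69, adjusted p = 0.708, edgeR).

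Obp1b, its neighbour on the X chromosome, had 28.04, 455, 3031 and 63.3 CPM in OMP_IGF1R 11, 12, 17 and 18, against 29.3, 1393, 93.2 and 6516 CPM in IGF1R_flfl 1, 2, 3 and 13. The order of the libraries was that of Obp1a. Obp1b averaged 894 ± 1437 CPM in OMP_IGF1R and 2008 ± 3070 CPM in IGF1R_flfl (SD, n = 4 each), with a log2 fold change of -1.17 (SE 1.65, adjusted p = 0.719, edgeR). Obp1b shares 57.3% of its transcript windows with Gm14743, so reads may be split between them, while Obp1a shares none. The ratio of Obp1a to Obp1b reads moved little: it was 1.37, 1.70, 1.75 and 1.93 in OMP_IGF1R 11, 12, 17 and 18, against 1.40, 1.87, 1.69 and 1.84 in IGF1R_flfl 1, 2, 3 and 13.

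**Figure D1:**
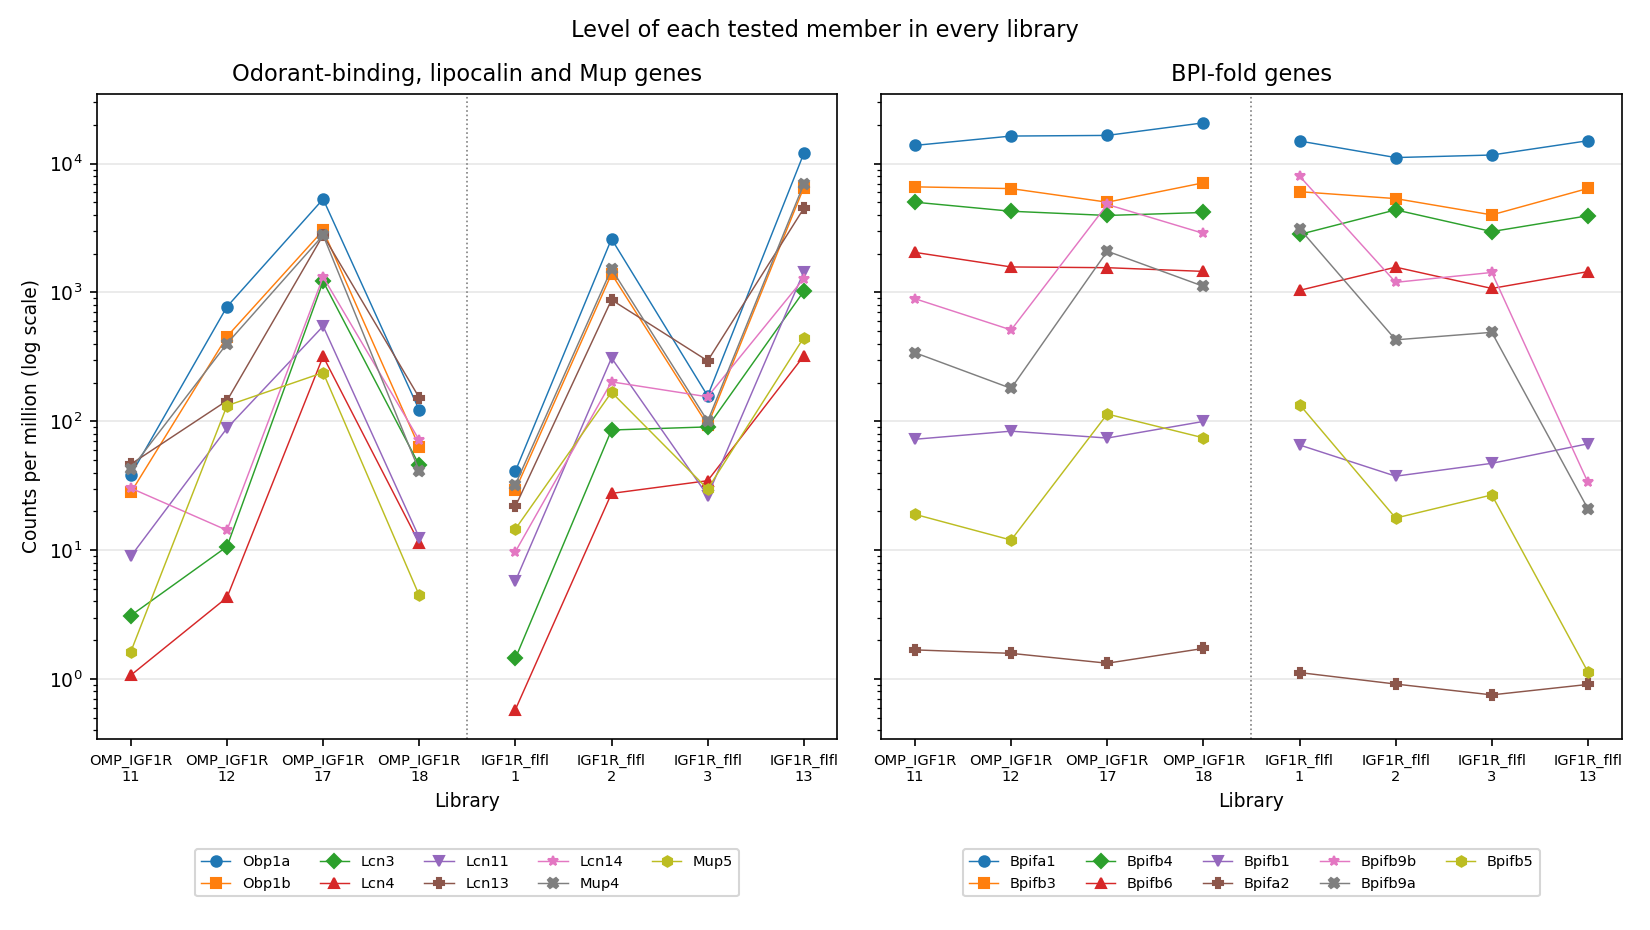
CPM of the tested members in each of the 8 libraries, on a log axis, with OMP_IGF1R libraries to the left of IGF1R_flfl libraries, and the points of each gene joined by a line as a guide to the eye. Obp1a runs between 38.4 and 11985 CPM, while Bpifa1 stays between 11140 and 20720 CPM.

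The lipocalins of the chromosome 2 cluster also varied widely between libraries. Lcn13 had 46.5, 145, 2785 and 152 CPM in OMP_IGF1R 11, 12, 17 and 18, against 21.9, 876, 295 and 4492 CPM in IGF1R_flfl 1, 2, 3 and 13. Within a group its range was 59.9-fold in OMP_IGF1R and 206-fold in IGF1R_flfl. Lcn13 averaged 782 ± 1336 CPM in OMP_IGF1R and 1421 ± 2078 CPM in IGF1R_flfl (SD, n = 4 each), with a log2 fold change of -0.86 (SE 1.49, adjusted p = 0.773, edgeR).

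Lcn14 had 30.3, 14.3, 1319 and 71.4 CPM in OMP_IGF1R 11, 12, 17 and 18, against 9.73, 202, 155 and 1283 CPM in IGF1R_flfl 1, 2, 3 and 13. The highest library of each group was close to the other, and both lay far above the remaining 6. The log2 fold change of Lcn14 was -0.20 (SE 1.499, adjusted p = 0.951, edgeR), with means of 359 ± 640 CPM in OMP_IGF1R and 413 ± 586 CPM in IGF1R_flfl (SD, n = 4 each).

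Lcn3 and Lcn4 are known as vomeronasal secretory proteins of the mouse. Lcn3 had 3.11, 10.7, 1216 and 45.7 CPM in OMP_IGF1R 11, 12, 17 and 18, against 1.45, 85.6, 90.5 and 1021 CPM in IGF1R_flfl 1, 2, 3 and 13. Over the 8 libraries the highest level exceeded the lowest 840-fold, and the groups covered nearly the same range, with a log2 fold change of 0.09 (SE 1.78, adjusted p = 0.982, edgeR). Lcn4 spanned 1.07 to 319 CPM in OMP_IGF1R and 0.579 to 322 CPM in IGF1R_flfl (log2 fold change -0.19, SE 1.63, adjusted p = 0.959, edgeR), and the ratio of Lcn3 to Lcn4 reads stayed between 2.48 and 4.02. OMP_IGF1R 17, where both were highest in their group, is also the library with the high vomeronasal sum. IGF1R_flfl 13, where both were highest in the other group, had the lowest vomeronasal sum of all 8, at 29.1 CPM. Trpc2, counted among the vomeronasal genes, alone had 24.8 CPM in IGF1R_flfl 13 and 35.0 CPM in OMP_IGF1R 17. It made up most of the sum in every library but OMP_IGF1R 17, where the sum was 122 CPM. Of the 321 vomeronasal genes found, 129 were at 0 reads in every library. The part of vomeronasal tissue in the levels of OMP_IGF1R 17 was not tested.

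Lcn11 had 8.97, 88.4, 547 and 12.5 CPM in OMP_IGF1R 11, 12, 17 and 18, against 5.75, 310 and 26.5 CPM in IGF1R_flfl 1, 2 and 3 and 1446 CPM in IGF1R_flfl 13. Its groups overlapped, with means of 164 ± 258 CPM in OMP_IGF1R and 447 ± 680 CPM in IGF1R_flfl (SD, n = 4 each) and a log2 fold change of -1.44 (SE 1.59, adjusted p = 0.635, edgeR).

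The tested major urinary protein genes were Mup4, known from the nasal mucosa, and Mup5. Mup4 had 42.5, 401, 2782 and 41.2 CPM in OMP_IGF1R 11, 12, 17 and 18, against 32.3, 1522, 100.3 and 6942 CPM in IGF1R_flfl 1, 2, 3 and 13. IGF1R_flfl 1 and OMP_IGF1R 11 and 18 lay close together at the bottom, the other 5 libraries stood in the order they had for Obp1a, and the ratio of Obp1a to Mup4 reads lay between 0.903 and 2.96. Mup4 averaged 817 ± 1321 CPM in OMP_IGF1R and 2149 ± 3268 CPM in IGF1R_flfl (SD, n = 4 each), with a log2 fold change of -1.40 (SE 1.64, adjusted p = 0.660, edgeR).

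Mup5 had 1.63, 132, 239 and 4.45 CPM in OMP_IGF1R 11, 12, 17 and 18, against 14.6, 168, 29.8 and 446 CPM in IGF1R_flfl 1, 2, 3 and 13. Its range was 146-fold in OMP_IGF1R and 30.6-fold in IGF1R_flfl, and the log2 fold change was -0.80 (SE 1.35, adjusted p = 0.765, edgeR). The 8 liver markers summed to 4.33 to 6.12 CPM in OMP_IGF1R and 1.19 to 2.04 CPM in IGF1R_flfl, and of the 2 tested 1 was called higher in OMP_IGF1R, the albumin gene Alb. The sum lay below Mup4 in every library. It lay above Mup5 in OMP_IGF1R 11 (6.12 CPM, against 1.63 CPM of Mup5) and OMP_IGF1R 18 (4.57 CPM, against 4.45 CPM of Mup5). The part of liver RNA in the Mup levels was not tested.

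The 9 tested Obp, Lcn and Mup genes shared their extremes. OMP_IGF1R 17 had the highest level of its group in 9 of 9 genes and OMP_IGF1R 11 the lowest in 7 of 9. IGF1R_flfl 13 had the highest level of its group in 9 of 9 and IGF1R_flfl 1 the lowest in 9 of 9. Summed over the 9 genes, the OMP_IGF1R libraries 11, 12, 17 and 18 had 200.5, 2025, 17544 and 524 CPM, and the IGF1R_flfl libraries 1, 2, 3 and 13 had 157, 7189, 982 and 34454 CPM, with the same extremes in both groups. The genes did not keep one ratio throughout: Obp1a over Lcn3 reads ran between 1.74 in IGF1R_flfl 3 and 72.7 in OMP_IGF1R 12.

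The summed level of gland and secretory markers was also highest in OMP_IGF1R 17 within its group (7451 CPM, against 6630 to 7298 in the other 3) and in IGF1R_flfl 13 within its group (7456 CPM, against 4649 to 6354 in the other 3). That sum moved within a group by far less than the Obp, Lcn and Mup sum did. It includes Ltf, at 505 CPM in OMP_IGF1R 17 against 170 CPM in OMP_IGF1R 11, the library with the sum of 7298 CPM. Without Ltf the sum of OMP_IGF1R 17 would lie below that of OMP_IGF1R 11, while IGF1R_flfl 13 would stay the highest of its group. Of the 26 markers found, 2 were at 0 reads in every library. The part of gland content in the member levels was not tested. Sustentacular markers summed to 26418 to 27877 CPM in OMP_IGF1R and 23569 to 29718 CPM in IGF1R_flfl, and respiratory ciliated markers to 295 to 331 CPM in OMP_IGF1R and 333 to 439 CPM in IGF1R_flfl. The ciliated sums did not overlap, and the 4 ciliated markers found all had a log2 fold change below 0. By edgeR 2 of them, Ccdc39 and Tekt1, were called lower, where 5.37% of all genes were. DESeq2 and limma voom called these and Foxj1 lower.

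**Figure D2:**
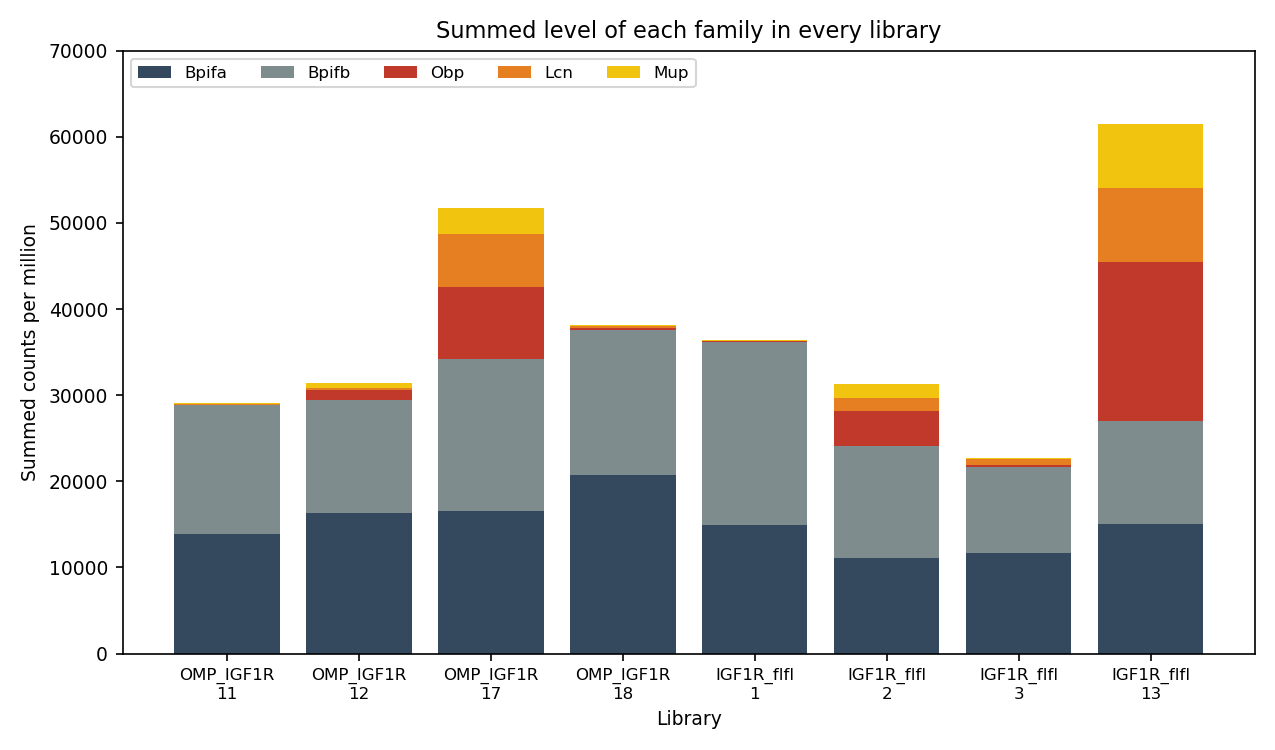
Summed CPM of each family in each library, with OMP_IGF1R libraries to the left of IGF1R_flfl libraries. The Obp sum reaches 8337 CPM in OMP_IGF1R 17 and 18501 CPM in IGF1R_flfl 13, while the Bpifa sum stays between 11146 and 20723 CPM in all 8 libraries.

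Among the BPI-fold genes, Bpifb9a, Bpifb9b and Bpifb5 varied widely and the other 6 tested genes did not, a division made after the values were seen. Bpifb9b had 894, 512, 4818 and 2875 CPM in OMP_IGF1R 11, 12, 17 and 18, against 8000.3, 1198, 1430 and 33.6 CPM in IGF1R_flfl 1, 2, 3 and 13. Within a group its range was 9.41-fold in OMP_IGF1R and 238-fold in IGF1R_flfl, with means of 2275 ± 1987 CPM in OMP_IGF1R and 2665 ± 3609 CPM in IGF1R_flfl (SD, n = 4 each) and a log2 fold change of -0.23 (SE 1.16, adjusted p = 0.930, edgeR). IGF1R_flfl 1, with the lowest Obp1a level but for OMP_IGF1R 11, had the highest Bpifb9b level, and IGF1R_flfl 13, with the highest Obp1a level, had the lowest Bpifb9b level.

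Bpifb9a spanned 180 to 2090 CPM in OMP_IGF1R and 20.9 to 3131 CPM in IGF1R_flfl (log2 fold change -0.13, SE 1.15, adjusted p = 0.960, edgeR). Bpifb9a shares 46.9% of its transcript windows with Bpifb9b, and Bpifb9b 53.8% of its own with Bpifb9a, so the counting could split their reads and their separate levels are uncertain. Bpifb5 spanned 11.97 to 114 CPM in OMP_IGF1R and 1.13 to 135 CPM in IGF1R_flfl (log2 fold change 0.27, SE 1.02, adjusted p = 0.906, edgeR) and shares no windows. In all 3 genes IGF1R_flfl 1 was the highest and IGF1R_flfl 13 the lowest of the 8 libraries, and within OMP_IGF1R library 17 was the highest and library 12 the lowest. The order thus differed from that of the Obp, Lcn and Mup genes in IGF1R_flfl. Within OMP_IGF1R, library 17 was the highest in both sets, while library 12 was the lowest for 1 of the 9 Obp, Lcn and Mup genes, Lcn14. Obp1a reads per Bpifb9b read were 1.10 in OMP_IGF1R 17, against 0.00514 in IGF1R_flfl 1 and 357 in IGF1R_flfl 13, the lowest and highest of all 8 libraries.

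The other BPI-fold genes were steady between libraries. Bpifa1, also known as SPLUNC1, is a secreted protein of the upper airway, and had 13847, 16362, 16549.5 and 20720 CPM in OMP_IGF1R 11, 12, 17 and 18, against 14976, 11140, 11659 and 15051 CPM in IGF1R_flfl 1, 2, 3 and 13. The groups overlapped, since OMP_IGF1R 11 lay below the highest IGF1R_flfl libraries. Bpifa1 averaged 16869.5 ± 2847 CPM in OMP_IGF1R and 13206.5 ± 2098 CPM in IGF1R_flfl (SD, n = 4 each), and its log2 fold change of 0.35 (SE 0.136) did not pass the threshold (adjusted p = 0.153, edgeR).

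Bpifb3 and Bpifb4, whose rat counterparts are known from Bowman's glands of the olfactory mucosa, varied as little. Bpifb3 had 6601, 6399, 5019 and 7095 CPM in OMP_IGF1R 11, 12, 17 and 18, against 6053, 5350.2, 3999.6 and 6417 CPM in IGF1R_flfl 1, 2, 3 and 13 (log2 fold change 0.20, SE 0.150, adjusted p = 0.462, edgeR). Bpifb4 had 5018, 4268, 3959 and 4176 CPM in OMP_IGF1R 11, 12, 17 and 18, against 2819, 4376, 2968 and 3938 CPM in IGF1R_flfl 1, 2, 3 and 13 (log2 fold change 0.31, SE 0.143, adjusted p = 0.236, edgeR). For both genes the groups overlapped.

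Bpifb6, next to Bpifb3 on chromosome 2, had 2046, 1577, 1557 and 1457 CPM in OMP_IGF1R 11, 12, 17 and 18, against 1038, 1572, 1074 and 1451 CPM in IGF1R_flfl 1, 2, 3 and 13. Its groups overlapped too, and its log2 fold change was 0.37 (SE 0.157, unadjusted p = 0.0412, adjusted p = 0.191, edgeR). The ratio of Bpifb4 to Bpifb6 reads lay between 2.45 and 2.87 in all 8 libraries.

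Bpifa2, the parotid secretory protein of saliva, was the one member to pass the test, at a low level. It had 33, 42, 30 and 45 reads in OMP_IGF1R 11, 12, 17 and 18, or 1.68, 1.58, 1.33 and 1.73 CPM, against 31, 24, 19 and 20 reads in IGF1R_flfl 1, 2, 3 and 13, or 1.12, 0.914, 0.753 and 0.908 CPM. The groups did not overlap. Bpifa2 averaged 1.58 ± 0.179 CPM in OMP_IGF1R and 0.924 ± 0.151 CPM in IGF1R_flfl (SD, n = 4 each), with a log2 difference of 0.77 (SE 0.192, adjusted p = 0.0407, edgeR). The call was lost with DESeq2 (adjusted p = 0.0587), with no filter beyond 1 count (0.0575), without OMP_IGF1R 17 and IGF1R_flfl 2 together (0.0650), and without any single library other than OMP_IGF1R 17 and IGF1R_flfl 1 (up to 0.121, without OMP_IGF1R 18).

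Bpifb1 lay at 72.6 to 99.8 CPM in OMP_IGF1R and 37.5 to 66.9 CPM in IGF1R_flfl, again with no overlap. Its log2 fold change was 0.61 (SE 0.182), which edgeR did not call (adjusted p = 0.0759) and DESeq2 did (adjusted p = 0.00771).

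Set against all tested genes, the spread within groups was wide. The SD of log2(CPM + 0.5) between libraries, pooled over the 2 groups, was over 1 for 12 of the 18 tested members (66.7%) and for 157 of all 17381 tested genes (0.903%). It was over 2 for the same 12 members and for 36 of all genes. The median SD of the members was 2.71, against 0.137 for all genes. Within OMP_IGF1R the median SD was 2.06 for the members, against 0.113 for all genes, and within IGF1R_flfl it was 2.92 for the members, against 0.140 for all genes. Of the 2235 genes that averaged at least 100 CPM, 19 had an SD over 1 and 10 of those were members.

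The count of 12 members was the same with OMP_IGF1R 17 and IGF1R_flfl 2 left out together, while the count over all genes then came to 50. Without IGF1R_flfl 2 alone, the library with high oligodendrocyte genes, it came to 76, and the count of members was again 12. The 6 members with an SD under 1 were Bpifa1, Bpifa2, Bpifb1, Bpifb3, Bpifb4 and Bpifb6.

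**Figure D3:**
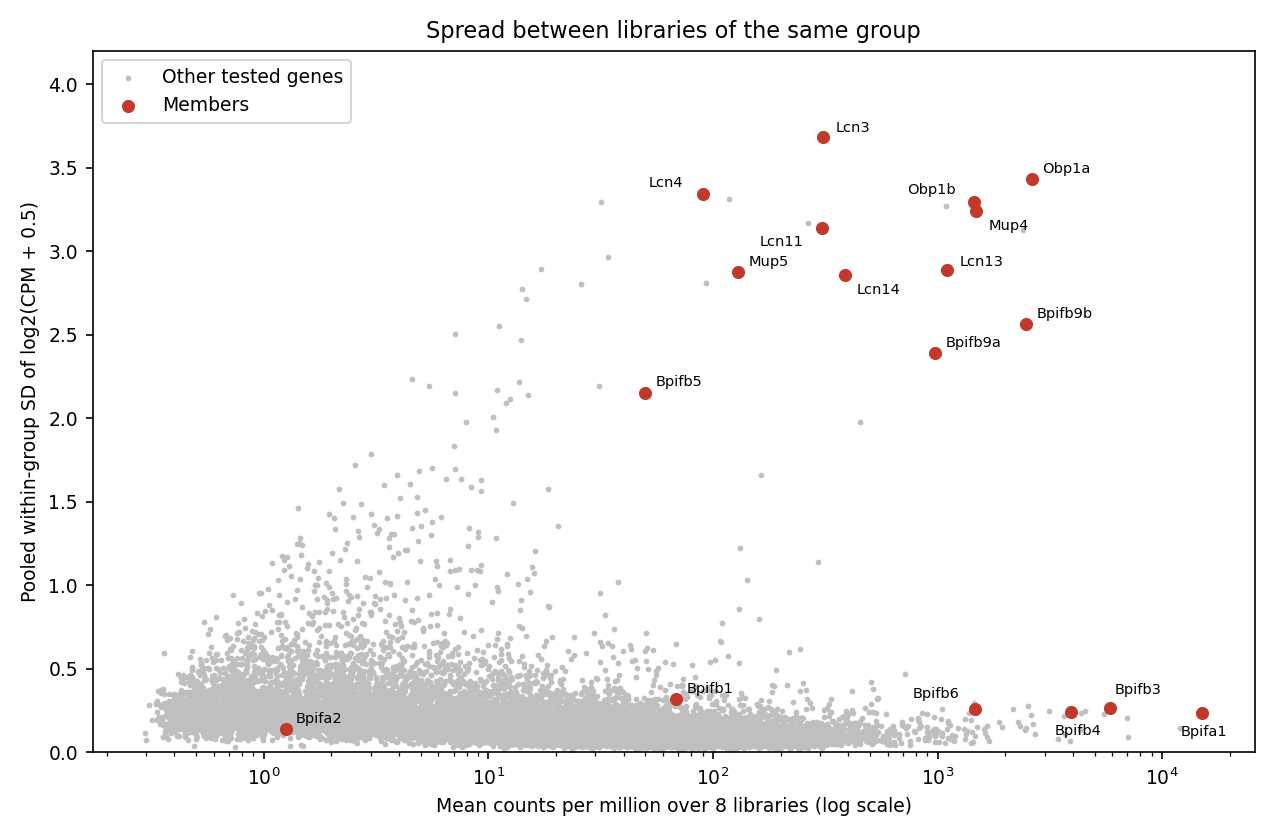
Pooled within-group SD of log2(CPM + 0.5) against mean CPM (log axis) for the 17381 tested genes, with the 18 members marked. The Obp, Lcn and Mup genes and Bpifb5, Bpifb9a and Bpifb9b lie above an SD of 2, while the other 6 BPI-fold genes lie below 1.

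Between the groups, 1 of the 18 tested members was called higher in OMP_IGF1R and 0 were called lower, where the share of all tested genes called in either direction was 8.20% (2.83% higher and 5.37% lower). By unadjusted p under 0.05 the count was 4, with Bpifa1, Bpifa2, Bpifb1 and Bpifb6 all higher, where the share of all genes was 23.5%. DESeq2 also called 1 member, Bpifb1, where it called 12.3% of all genes, and limma voom called 1 member, Bpifa2, where it called 10.6%. There was no overlap between the groups for 2 of 18 members, where the share of all genes that did not overlap was 16.9%. Both were higher in OMP_IGF1R, where the share of all genes without overlap in that direction was 6.57%. The median log2 fold change of the tested members was -0.16, with 8 above 0 and 10 below, against -0.01 for all 17381 genes. Leaving out 1 library moved that median between -0.89 and 0.52, and it was above 0 in 4 of the 8 fits, without OMP_IGF1R 11, 12 or 18 or IGF1R_flfl 13.

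The direction of the widely varying members hung on single libraries. Leaving out 1 library changed the sign of the log2 fold change for 12 of the 18 tested members and for none of Bpifa1, Bpifa2, Bpifb1, Bpifb3, Bpifb4 and Bpifb6. Without OMP_IGF1R 17 the log2 fold change of Obp1a was -3.56 (SE 1.87, adjusted p = 0.308, edgeR), and without IGF1R_flfl 13 it was 0.74 (SE 1.68, adjusted p = 0.836, edgeR). Lcn3 gave -3.89 (SE 1.75, adjusted p = 0.234, edgeR) without OMP_IGF1R 17 and 2.43 (SE 1.91, adjusted p = 0.492, edgeR) without IGF1R_flfl 13. With OMP_IGF1R 17 and IGF1R_flfl 2 both left out, Obp1a gave -3.70 (SE 1.92, adjusted p = 0.287, edgeR), Mup4 -3.86 (SE 1.86, adjusted p = 0.252, edgeR) and the members a median of -1.47.

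**Figure D4:**
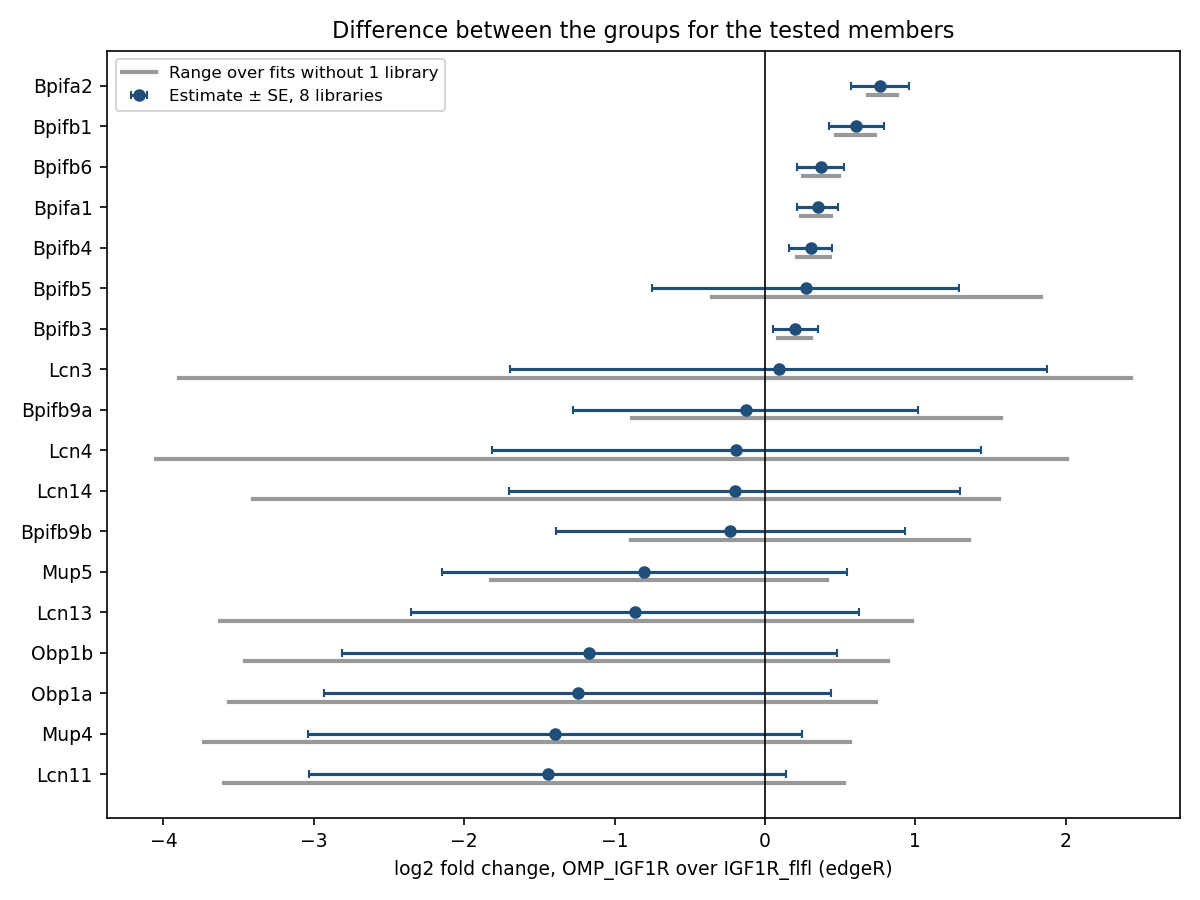
Log2 fold change (OMP_IGF1R over IGF1R_flfl, edgeR) of the 18 tested members with its SE as a bar, and the range over fits that each leave out 1 library. The SEs run from 0.136 for Bpifa1 to 1.78 for Lcn3.

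Per length of transcript, Bpifa1 had the highest mean level over the 8 libraries, at 9733 CPM per kilobase of exon. Obp1a followed at 3472, Bpifb3 at 3132, Obp1b at 1821, Mup4 at 1608, Lcn13 at 1481, Bpifb4 at 1260 and Bpifb9b at 1195 CPM per kilobase. The order of these means was not tested, and Obp1a, Obp1b, Mup4, Lcn13 and Bpifb9b varied widely between libraries. Bpifa2 was the lowest of the tested members, at 0.623 CPM per kilobase.

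The header of the authors' deposited table of their own comparison does not name its direction, and the log2 fold change there had the same sign as here for 18 of 18 tested members. The largest in absolute size was 0.49, for Bpifb1 (adjusted p = 0.00879), the one member under 0.05 in the authors' deposited table. Obp1a stood at -0.06 (SE 0.0760, adjusted p = 0.730) and Bpifa2 at 0.47 (adjusted p = 0.0566) in the authors' deposited table. For Obp1a, DESeq2 run on the counts here gave -1.23 (SE 1.60, adjusted p = 0.724). The log2 fold change of Obp1a and its SE were thus both much smaller in the authors' deposited table, at a similar adjusted p. The sizes there cannot be set directly beside those given here.

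Related genes outside the members, namely Lcn2, Pltp, Lbp and Scgb1c1, had within-group SDs below those of the 12 widely varying members. The SDs were 0.489 for Lcn2, 0.067 for Pltp, 0.204 for Lbp and 0.247 for Scgb1c1. Those of the 6 steady BPI-fold genes lay between 0.141 for Bpifa2 and 0.318 for Bpifb1. Pltp lay below that range, Lbp and Scgb1c1 inside it and Lcn2 above it. Of the 10 other lipocalins found, 5 were tested and 1 was called higher. Lcn2, a siderophore-binding lipocalin of the defence against bacteria, had 27.99, 16.5, 45.6 and 20.03 CPM in OMP_IGF1R 11, 12, 17 and 18, against 13.9, 14.3, 10.1 and 9.71 CPM in IGF1R_flfl 1, 2, 3 and 13. The groups did not overlap, with a log2 fold change of 1.19 (SE 0.297, adjusted p = 0.0398, edgeR). DESeq2 called Lcn2 higher as well, along with Ptgds, while limma voom called 0 of the other lipocalins.

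Of the 4 other BPI-fold genes found, 2 were tested and 0 called: Pltp, which transfers phospholipids, at 0.09 (adjusted p = 0.344, edgeR), and Lbp, which binds lipopolysaccharide, at 0.26 on the log2 scale (adjusted p = 0.239, edgeR). Neither had an unadjusted p under 0.05, and DESeq2 and limma voom called 0 of them. Of the 4 secretoglobins, another family of secreted nasal proteins, 2 were tested and 0 called. Scgb1c1 averaged 4785 ± 370 CPM in OMP_IGF1R and 4245 ± 976 CPM in IGF1R_flfl (SD, n = 4 each), with a log2 difference of 0.17 (adjusted p = 0.521, edgeR). Neither secretoglobin had an unadjusted p under 0.05, and DESeq2 and limma voom called 0. Of 23 tested gland and secretory genes, 1 was called higher and 0 lower by edgeR, where the shares of all genes were 2.83% and 5.37%. An unadjusted p under 0.05 was found for 8, where the share of all genes was 23.5%. The log2 fold change was above 0 for 16 and below 0 for 7. The one called was Spdef, a transcription factor of secretory cells. It had 17.4 ± 0.751 CPM in OMP_IGF1R and 12.2 ± 1.66 CPM in IGF1R_flfl (SD, n = 4 each). Its log2 difference was 0.51 (SE 0.104, adjusted p = 0.0195, edgeR). DESeq2 called Spdef and Pigr higher, and limma voom Spdef alone.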

How the data were processed

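RNA from dissected olfactory epithelium was measured by stranded, poly(A)-selected paired-end sequencing, per the labels' protocols. The authors' deposited count table gives unnormalized whole-number read counts, as its values show. Per the submitters' processing notes, TopHat2 2.0.14 and SAMtools 1.2 were used on GRCm38 with Trim Galore 0.3.7 and DESeq2. How reads were counted, and with which strand setting, is not given in the sources used here. The authors' deposited comparison holds a mean normalized signal, log2 fold changes, a test score and p-values, per the file headers, and was used for description alone. A set of 8 deposited columns of standard deviations, constant at 0, was not used, and description text was trimmed from 23 gene identifiers.

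The test was edgeR's quasi-likelihood F-test (version 4.0.16 under R 4.3.3) after TMM scaling and filterByExpr. P-values were adjusted by Benjamini-Hochberg over 17381 genes, with a threshold of 0.05. The SE is the log2 fold change over the root of F. CPM are relative to TMM effective library sizes. Totals of 18802471 to 27793375 set the depth, so members with few reads have less certain fold changes. Before averaging, replicates of a group were compared pair by pair: the mean chi-square over genes was 11.8 to 108.1, above sampling noise. The scripts were tested on simulated data. Exon lengths and shared 100-base windows come from GENCODE M21, and promoter windows from RefSeq (GRCm38.p6).

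Values in every library are given for the 4 members of each family with the highest mean CPM, if that mean was at least 1, and for any called member. Other members are given by range. The members and the 12 lists were chosen with earlier results of these data known. Alternatives were DESeq2 1.42.0, limma 3.58.1 voom with sample weights, other scalings and filters, robust dispersion, raw totals, leaving out each library, and leaving out OMP_IGF1R 17 and IGF1R_flfl 2 together. Those for the spread count and the log2 scale for single high libraries were chosen after seeing the data.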

Additional observations from a re-analysis of the deposited data

Results flagged for a closer look

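Each group of 4 libraries was examined for a single library whose distance from its nearest neighbour took up most of the group's range, by Dixon's criterion. This marked 10 of 30 groups. Chance marks about 1 in 20 groups of normally distributed values, a rate that does not apply to CPM that span over 100-fold on a linear scale. On the scale of log2(CPM + 0.5), an alternative chosen after seeing the data, 1 of the 30 was marked, Bpifa6 in IGF1R_flfl. OMP_IGF1R 17 stood above the other OMP_IGF1R libraries in Obp1a (5306 CPM), Obp1b (3031 CPM), Lcn13 (2785 CPM), Lcn14 (1319 CPM), Lcn3 (1216 CPM), Lcn11 (547 CPM) and Mup4 (2782 CPM). The 7 genes have their highest level of the group in the same library, so the marks are not independent. OMP_IGF1R 17 is the library with high skeletal muscle and vomeronasal sums, whose part in these levels was not tested. IGF1R_flfl 13 stood above the other IGF1R_flfl libraries in Lcn14 (1283 CPM) and Lcn3 (1021 CPM), with muscle and vomeronasal sums inside or below the range of the others. IGF1R_flfl 2 stood above the others in Bpifa6 (4.49 CPM), a gene too low to test, and is the library with high bulb and oligodendrocyte genes, whose part was not tested.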

How the results depend on the processing

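No paired analysis was possible because the groups share no replicate numbers. The count of members called was 1 under DESeq2 and voom, 0 with no filter beyond 1 count, 0 with IGF1R_flfl 2 and OMP_IGF1R 17 left out together, and 0 to 1 without single libraries. The count over all genes was 2140 under DESeq2 and 569 (without OMP_IGF1R 18) to 1477 (without IGF1R_flfl 2) without single libraries. Lcn3 turned to -0.64 and Bpifb9b to 1.60 on the log2 scale under voom, and Lcn3 to -4.20 with both libraries left out. Without single libraries the log2 fold changes ran from -3.56 to 0.74 (Obp1a), -3.46 to 0.82 (Obp1b), -3.63 to 0.98 (Lcn13), -3.41 to 1.55 (Lcn14), -3.89 to 2.43 (Lcn3), -3.60 to 0.52 (Lcn11), -0.89 to 1.36 (Bpifb9b), -3.73 to 0.56 (Mup4) and -1.82 to 0.41 (Mup5). The cause was not tested. The number of members with a within-group SD over 1 was 12 under every alternative run for it, and that over all genes was 244 with a pseudocount of 0.1 and 83 with 2. It was 76 without IGF1R_flfl 2 and 50 without both libraries. Among the members given with values in every library, 20 single-gene values turned direction over all alternatives and 9, all of Bpifa2, lost their call. Lcn4, Bpifb5 and Bpifb9a, given by range, were left out of that count and also turned direction under some alternatives. The median log2 fold change of the members ran from -0.89 to 0.52 without single libraries. Depth limits Bpifa2 and Bpifa6, which rest on few reads, and the 20 members at 0.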

Other observations

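Several abundant genes outside the members, chosen after their values were seen, had their highest levels in the same libraries as the Obp, Lcn and Mup genes. Whether any of them belongs to these families by sequence was not examined. Gm14744, which lies near Obp1a on chromosome X, had 85.7, 690 and 4668 CPM in OMP_IGF1R 11, 12 and 17 and 99.5 CPM in OMP_IGF1R 18, against 56.7, 2477, 166 and 11019 CPM in IGF1R_flfl 1, 2, 3 and 13. Its log2 fold change was -1.31 (SE 1.59, adjusted p = 0.672, edgeR). The genes 5430402E10Rik, BC051076 and 2310057J18Rik were likewise highest in IGF1R_flfl 13, at 4746, 1167 and 519 CPM, and within their group highest in OMP_IGF1R 17, at 2553, 520.2 and 208 CPM.

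Ltf encodes lactoferrin, an iron-binding protein of glandular secretions, and is one of the gland and secretory markers summed above. It was highest in the same libraries, with a smaller range. It had 170, 206, 505 and 242 CPM in OMP_IGF1R 11, 12, 17 and 18, against 147, 147, 83.0 and 861 CPM in IGF1R_flfl 1, 2, 3 and 13, so its lowest library was IGF1R_flfl 3 and not IGF1R_flfl 1. Expi, a secreted protease inhibitor gene, was highest in the same libraries, at 332 CPM in OMP_IGF1R 17 and 285 CPM in IGF1R_flfl 13.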
